A study of Homo sapiens with 14 samples.

Results

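NRF2 and cystine antioxidant genes are described here by the KMT2D peaks around 10 of them: NFE2L2, NQO1, TXNRD1, HMOX1, GCLM, GCLC, SQSTM1, SLC7A11, SRXN1 and TRIM16L. KMT2D is a histone methyltransferase that acts mainly at enhancers. A peak was assigned to a gene when its summit lay within 50 kb of the gene's interval on hg19 (GRCh37). The rule uses position alone, although the genes were chosen with earlier results of these data known. Of 13808 peaks in all, 30 were assigned, to 9 of the 10 genes, and GCLC had none. The peaks came from 1 ChIP-seq library, made with an antibody to KMT2D. It came from SCC23, a human cell line established from a squamous cell carcinoma of the head and neck (HNSCC). The cells were wild type for KMT2D (KMT2D-WT) and had been kept without glucose for 6 hours, a state that the labels call low glucose. The 13 other samples of the study, which cover an input, histone antibodies and KMT2D-KO cells, were not analysed here. The list had no replicate, and glucose-sufficient cells, KMT2D-KO cells and expression were not analysed here, so the values below show neither a response to glucose deprivation nor an effect of KMT2D on these genes. No difference between peaks was tested.

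NRF2, the product of NFE2L2, is the main transcription factor of the response to oxidative and electrophilic stress. The adaptor KEAP1 marks it for degradation in unstressed cells. When KEAP1 is modified by electrophiles, NRF2 accumulates, pairs with a small MAF protein and binds antioxidant response elements, short DNA motifs with the core TGACNNNGC. Its targets make glutathione, keep thioredoxin reduced and detoxify quinones and haem. SLC7A11 links the response to glucose, because the cystine it imports must be reduced with NADPH, which cells largely make from glucose, and squamous carcinomas often carry mutations that activate NRF2.

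Promoter sequence was at hand from RefSeq for 7 of the 10 genes, as 11 promoters on GRCh38.p14. HMOX1, SLC7A11 and TRIM16L had no entry. TGACNNNGC was searched on both strands in the 300 bases from 250 before to 50 after each start, a motif that partly overlaps the AP-1 motif TGACTCA. It was found in 3 of the 11 promoters, the only promoter of GCLM and both promoters of TXNRD1, beside 13.3% of all 35116 RefSeq promoters. Among 38 other genes of the NRF2 pathway, 28 had an entry, with 41 promoters, of which 11 held the motif (26.8%). By gene it was held by 2 of the 7 members with an entry (28.6%) and by 11 of the 28 other genes (39.3%). The share was 16.1% of all 27305 genes with an entry, and the differences were not tested. The 11 other genes included KEAP1, MAFF, GPX2, PGD, ME1, CBR1 and SLC3A2, the partner chain of SLC7A11. Their positions on hg19 were not at hand, so peaks were not assigned to them. The sequences below are the 250 bases before the start, 5′ to 3′ on the strand of the gene. The GCLM and TXNRD1 promoters are shown because they hold the motif, which is in capitals. NQO1 and SRXN1 are shown because their strongest or only peak spanned the 5′ end of the gene as rounded to 1 kb. In NQO1 the capitals mark the looser motif TGANNNNGC, read on the other strand. SRXN1 held neither.
GCLM, chr1:93909431-93909680, minus strand: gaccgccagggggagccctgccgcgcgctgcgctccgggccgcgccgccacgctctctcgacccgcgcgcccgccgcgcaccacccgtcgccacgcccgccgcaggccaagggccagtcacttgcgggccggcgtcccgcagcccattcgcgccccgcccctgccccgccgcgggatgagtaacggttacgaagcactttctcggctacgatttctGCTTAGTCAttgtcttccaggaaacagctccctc
TXNRD1, upstream promoter, chr12:104215529-104215778, plus strand: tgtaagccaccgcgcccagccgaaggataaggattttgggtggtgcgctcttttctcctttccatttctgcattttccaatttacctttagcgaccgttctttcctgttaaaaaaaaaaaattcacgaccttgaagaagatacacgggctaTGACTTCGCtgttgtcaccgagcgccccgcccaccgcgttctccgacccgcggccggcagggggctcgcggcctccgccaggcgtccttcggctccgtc
TXNRD1, downstream promoter, chr12:104286782-104287031, plus strand: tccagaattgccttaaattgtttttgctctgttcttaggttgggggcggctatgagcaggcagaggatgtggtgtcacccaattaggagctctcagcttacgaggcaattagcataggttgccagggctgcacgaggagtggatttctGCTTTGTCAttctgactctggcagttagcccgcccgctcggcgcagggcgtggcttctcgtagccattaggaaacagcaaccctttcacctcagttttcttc
NQO1, chr16:69726561-69726810, minus strand: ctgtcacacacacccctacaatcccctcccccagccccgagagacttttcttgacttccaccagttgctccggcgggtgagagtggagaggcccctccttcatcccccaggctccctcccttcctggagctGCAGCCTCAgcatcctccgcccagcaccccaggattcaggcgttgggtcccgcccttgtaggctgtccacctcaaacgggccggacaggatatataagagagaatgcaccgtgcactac
SRXN1, chr20:653201-653450, minus strand: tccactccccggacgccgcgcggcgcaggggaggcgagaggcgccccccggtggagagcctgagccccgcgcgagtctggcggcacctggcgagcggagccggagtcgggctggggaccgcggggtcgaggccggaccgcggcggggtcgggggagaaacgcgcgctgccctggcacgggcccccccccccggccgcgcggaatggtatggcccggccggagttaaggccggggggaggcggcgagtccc

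In GCLM the motif began 34 bases before the start. In TXNRD1 it began 99 bases before the start of the upstream promoter, where another match crossed the start itself, and 102 bases before the start of the downstream promoter. The looser letters TGANNNNGC were found in 6 of the 11 promoters. They occur in 41.8% of all promoters. A match is a description of letters. Whether NRF2 was bound at any of them was not measured.

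The 30 peaks lay at 21.0 per Mb of the 10 windows, which span 1.43 Mb (95% Poisson interval 14.2 to 30.0). The interval takes the peaks as independent, although several lay close together, and 26 remained when peaks within 1000 bp were merged. Peaks lay at 5.00 per Mb on the 10 chromosomes that hold the genes and at 4.49 per Mb on chromosomes 1 to 22 and X. At least 1 peak fell in 9 of the 10 windows, against 24.8% of adjoining stretches of 134 kb, the median window length, along chromosomes 1 to 22 and X. Every window holds a gene and many stretches do not, so these values do not set the antioxidant genes apart from other genes. TXNRD1, SQSTM1 and HMOX1 together carried 19 of the 30 peaks.

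The strength of the 30 peaks was near that of the list. Fold enrichment, which sets the ChIP pileup at the summit against its local background, had a median of 3.76 (interquartile range 3.02 to 5.93), beside 3.93 (3.14 to 5.39) over all peaks. The median number of ChIP fragments at the summit, worked out from the deposited fold enrichment and p-value, was 21.5 (range 14 to 165), beside 25 over all peaks. The q-value was at most 0.05 for 14 of the 30 (46.7%, 95% Wilson interval 30.2 to 63.9%), beside 58.5% of all peaks. These 14 had a median fold enrichment of 5.98 and were found at 8 genes. The other 16 had a median of 3.02, and their single values rest on few fragments. Peaks wider than 1000 bp numbered 5 (16.7%), against 5.48% of all peaks, and were found at TXNRD1, which had 2 of them, and at NQO1, SQSTM1 and TRIM16L with 1 each, although TXNRD1 is also the longest gene of the set. Clusters of at least 3 peaks, joined over gaps of up to 10000 bp, held 12 of the 30 peaks, namely 6 at TXNRD1, 3 at HMOX1 and 3 at SQSTM1, beside 30.0% on chromosomes 1 to 22 and X. None of these shares was tested.

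**Figure D1:**
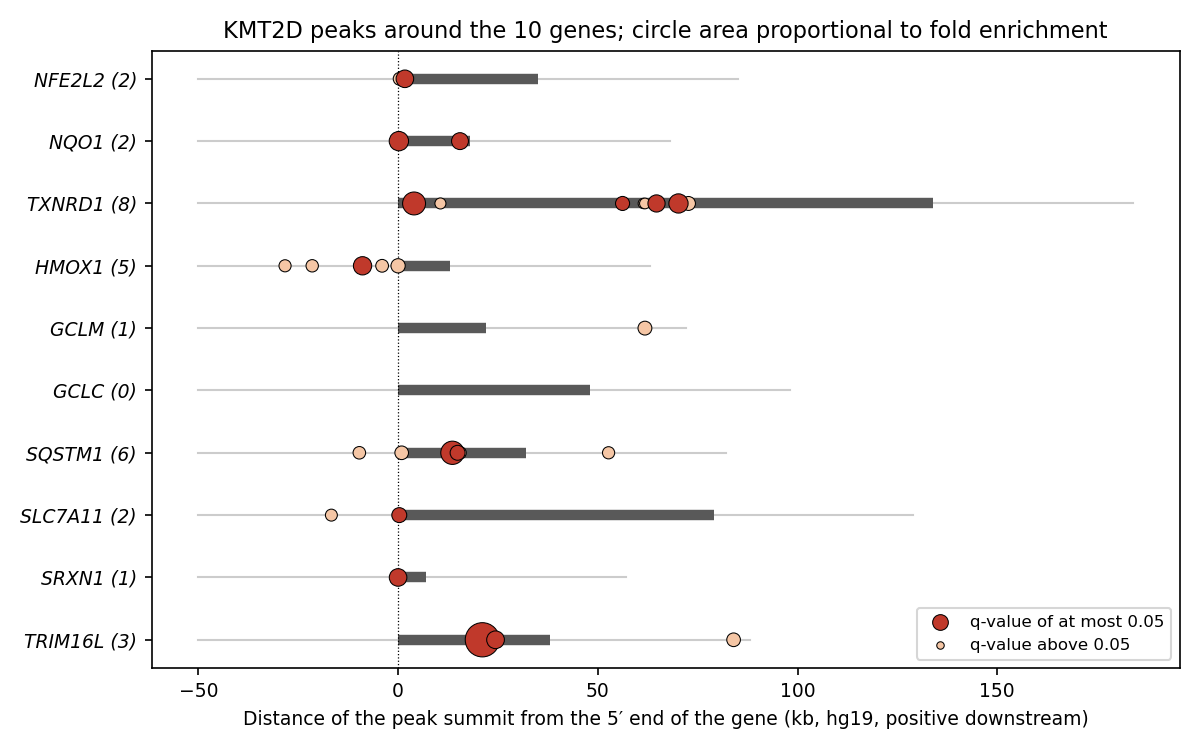
Position of each KMT2D peak summit, in kb from the 5′ end of the gene on hg19, for the 10 genes. Thick bars are the gene intervals, thin lines the 50 kb on either side, circle area is proportional to fold enrichment, colour gives the q-value class, and the number of peaks follows each name. Circles that lie close together overlap. Summits sit at or near the 5′ end in 6 genes, the largest circle, of TRIM16L, lies inside the gene, and GCLC has none.

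Relative to the gene intervals, 20 summits lay inside, 7 upstream and 3 downstream. TXNRD1, the longest gene, held 8 of the 20. Within 2 kb of the 5′ end lay 7 summits, at 6 genes: NFE2L2, NQO1, HMOX1, SQSTM1, SLC7A11 and SRXN1. At 4 of them, all but HMOX1 and SQSTM1, such a peak had a q-value of at most 0.05. Only the outermost 5′ end of each gene was used, not the further RefSeq starts of NFE2L2, TXNRD1 and SQSTM1. The same counts were not made for all peaks, so they do not set these genes apart from others. The ends of the intervals are rounded to 1 kb, so each distance from a 5′ end carries an uncertainty of at least 0.5 kb. The GCLM interval differed from the RefSeq gene length on GRCh38 by 2.23 kb, more than this rounding can give.

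NFE2L2, which encodes NRF2 itself, lies at 178.095 to 178.130 Mb of chromosome 2, on the minus strand, and had 2 peaks. The stronger, at positions 178128195 to 178129157, had a fold enrichment of 5.94 (95% Poisson interval 4.22 to 8.16) with 33 fragments over the summit and a q-value of 6.58e-06. Its summit lay 1.7 kb inside the gene. The weaker lay 0.4 kb inside the gene, with a fold enrichment of 3.20, 15 fragments and a q-value of 0.994. The stronger peak thus lay downstream of the 5′ end as rounded, and the summit nearest to that end was the weaker of the pair. The weaker summit lay within the 0.5 kb of rounding at that end, so its side is not resolved. RefSeq lists 2 starts for the gene, 596 bp apart on GRCh38, and which start each peak lay nearest to was not resolved.

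SQSTM1 encodes p62, an autophagy adaptor that binds KEAP1 and takes it away from NRF2. It lies at 179.233 to 179.265 Mb of chromosome 5, on the plus strand, and had 6 peaks. The strongest, at positions 179245934 to 179247066, had a fold enrichment of 10.4 (7.98 to 13.4), 55 fragments and a q-value of 1.43e-15, over a local background at the genome-wide level. It spanned 12.9 to 14.1 kb from the 5′ end and ranked 489 of all peaks. The next, with a fold enrichment of 4.29 and a q-value of 0.0395, spanned 14.5 to 15.0 kb, and another with 3.02 and a q-value of 0.994 followed at 15.4 to 15.7 kb. RefSeq places 3 starts in this gene, at 0, 0.616 and 14.5 kb from the outermost one on GRCh38. Distances in the builds are set side by side and no coordinate was converted. The summit nearest to the 5′ end, 0.9 kb inside, had a fold enrichment of 3.56 with 17 fragments and a q-value of 0.217. The remaining pair lay 9.7 kb upstream and 52.7 kb downstream of the 5′ end, with fold enrichments of 3.02 and 2.86. The signal at SQSTM1 was therefore low at its outermost 5′ end and high inside the gene, at distances near the 14.5 kb of the innermost start. Whether these inner peaks lie at that start was not resolved. The gene overlaps MGAT4B and MRNIP on GRCh38.

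TXNRD1, thioredoxin reductase, keeps thioredoxin reduced at the expense of NADPH. With 134 kb (104.610 to 104.744 Mb of chromosome 12, plus strand) it was the longest of the 10 genes, and its 8 peaks all lay inside it. Fold enrichment was highest at positions 104613168 to 104614305, with 10.1 (8.25 to 12.1), 103 fragments and a q-value of 9.71e-26. This summit lay 4.0 kb inside the gene and was the nearest to the 5′ end. The next peak, with a summit 10.6 kb inside, had 2.34 and a q-value of 1.00. The other 6 formed a cluster from 56.0 to 72.8 kb inside the gene. In order from the 5′ end, fold enrichment in the cluster was 3.80, 2.05, 2.21, 5.67, 7.12 and 3.73. Its strongest peak, at positions 104679993 to 104681384, had 71 fragments and a q-value of 5.29e-14 and spanned 70.0 to 71.4 kb, and the peak with 5.67 had a q-value of 1.36e-08. The signal was therefore split between the 5′ part and a block deeper inside the gene. The downstream RefSeq start, whose promoter is printed above, lies 71.3 kb from the outermost one on GRCh38. Whether a peak of the block lies at this start was not resolved. Local background was raised at several of these peaks: it was 2.74 times the genome-wide level at the strongest peak, 2.68 at the peak with 7.12 and 5.48 at the peak with 2.05, the highest among the 30. Fold enrichment is computed against this background, and its part in the number of peaks was not tested.

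SRXN1 encodes sulfiredoxin, which restores peroxiredoxins after over-oxidation. It lies at 0.627 to 0.634 Mb of chromosome 20, on the minus strand, and had a single peak, at positions 633810 to 634363, which spanned its 5′ end as rounded. Fold enrichment there was 5.93 (4.15 to 8.26), with 30 fragments where the local background gives 2.88, and the q-value was 1.16e-05. The nearest other peak lay 180 kb from the gene.

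SLC7A11, GCLM and GCLC, the genes of cystine uptake and glutathione synthesis, had 2, 1 and 0 peaks. SLC7A11, the transport subunit of the cystine and glutamate exchanger, lies at 139.085 to 139.164 Mb of chromosome 4, on the minus strand. A peak at positions 139163557 to 139163786 had its summit 0.3 kb inside the gene, with a fold enrichment of 4.29 (2.84 to 6.31), 21 fragments and a q-value of 0.0395. The other peak lay 16.7 kb upstream with 2.74 and a q-value of 1.00. Thus the only peak of the gene below the q-value of 0.05 lay at its 5′ end, and the 79.0 kb of the interval held no further peak.

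GCLM and GCLC encode the modifier and the catalytic subunit of glutamate-cysteine ligase, the enzyme of the rate-limiting step of glutathione synthesis. GCLM (94.353 to 94.375 Mb of chromosome 1, minus strand) had 1 peak, at positions 94313047 to 94313459, with a fold enrichment of 3.68 (2.42 to 5.45), 20 fragments and a q-value of 0.121. It lay 61.8 kb from the 5′ end, beyond the other end of the gene, on the side where DNTTIP2 and BCAR3 neighbour GCLM on GRCh38. The promoter of GCLM printed above, which holds the antioxidant response element letters, thus had no peak near it in this list. GCLC (53.362 to 53.410 Mb of chromosome 6, minus strand) had no peak within 50 kb. The nearest lay 70.6 kb away, with a fold enrichment of 3.16, 30 fragments and a q-value of 0.0930. A missing peak means that the signal did not reach the authors' p-value threshold. The smallest number of fragments over any summit of the list was 11, and occupancy below the threshold was not detectable at this depth.

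NQO1 and HMOX1, which detoxify quinones and break down haem, differed in where their peaks lay. NQO1 (69.743 to 69.761 Mb of chromosome 16, minus strand) had 2 peaks and both reached a q-value of at most 0.05. A peak of 1314 bp at positions 69760527 to 69761840 spanned the 5′ end as rounded. It had a fold enrichment of 7.18 (5.20 to 9.72), 37 fragments and a q-value of 1.01e-08. Its inner edge lay 0.5 kb inside that end, so with the rounding it is not certain that the peak reached the exact end. The peak at positions 69745355 to 69745605 lay 15.5 kb inside the gene, with 5.48 (4.18 to 7.07), 54 fragments and a q-value of 6.14e-08. It had more fragments than the peak at the 5′ end but a lower fold enrichment, over a local background of 2.68 times the genome-wide level against 1.00 at the 5′ end.

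HMOX1 (35.777 to 35.790 Mb of chromosome 22, plus strand) had 5 peaks, all of them with summits upstream of the interval, and the 3 nearest formed a cluster that ended at the 5′ end. In order toward the gene, the summits lay 28.3, 21.5, 8.9, 4.0 and 0.0 kb upstream of the 5′ end. Fold enrichment in the same order was 2.82, 2.94, 6.42, 3.12 and 3.90. The peak 8.9 kb upstream, at positions 35767475 to 35768459, was the strongest (95% Poisson interval 4.68 to 8.63, 39 fragments) and the only one with a q-value of at most 0.05 (4.07e-07). The peak at the 5′ end had 20 fragments and a q-value of 0.0667. TOM1 neighbours HMOX1 on this side on GRCh38, and which of the genes the upstream peaks serve was not measured.

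TRIM16L, a partial copy of TRIM16 that RefSeq lists as a transcribed pseudogene, had the strongest peak of the set. It lies at 18.601 to 18.639 Mb of chromosome 17, on the plus strand. The peak at positions 18621797 to 18622959 had a fold enrichment of 22.5 (19.3 to 26.2), 165 fragments where the local background gives 4.82, and a q-value of 3.25e-65, and it ranked 6 of all 13808 peaks. Its local background was 1.67 times the genome-wide level. The summit lay 21.1 kb from the outermost 5′ end, inside the gene. A neighbouring peak 24.4 kb from the 5′ end had 6.03 (4.57 to 7.84) and a q-value of 1.29e-08. Another peak lay 84.0 kb from the 5′ end, beyond the other end, where FBXW10 and TVP23B neighbour the gene on GRCh38, with 3.58 and a q-value of 0.291. No summit lay within 2 kb of the outermost 5′ end of TRIM16L. Only uniquely mapped reads were used for peaks, and how much of TRIM16L such reads can cover was not tested.

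**Figure D2:**
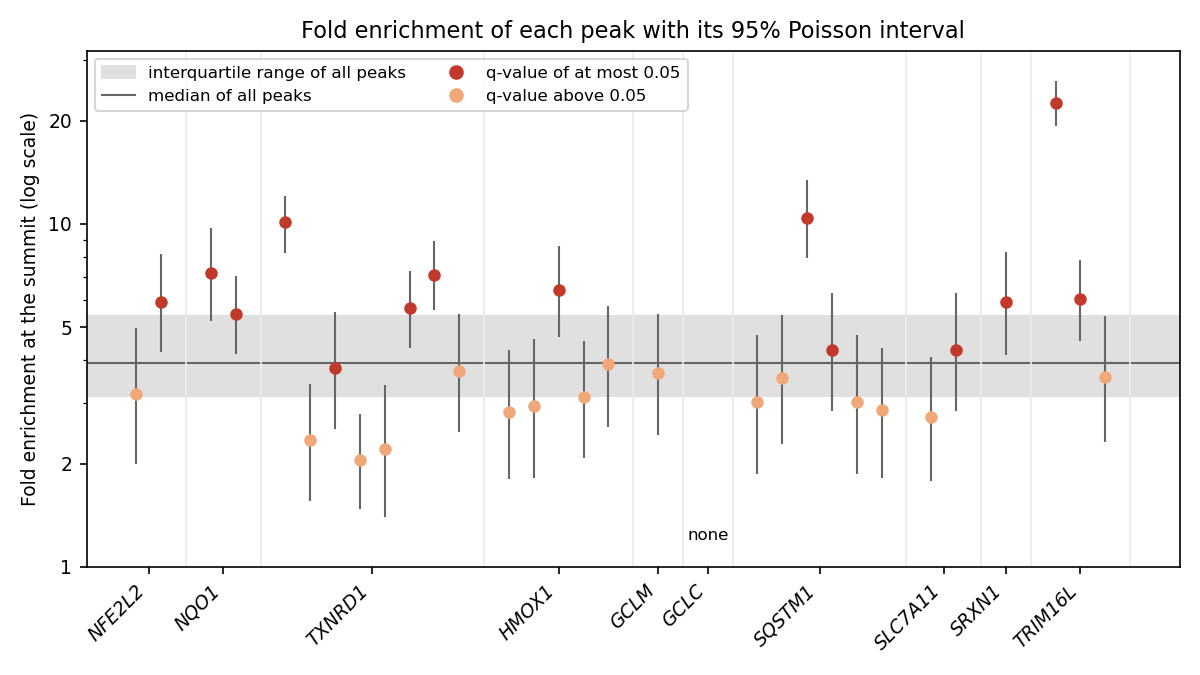
Fold enrichment at the summit (log scale) of each of the 30 peaks by gene, ordered within a gene from upstream to downstream, with 95% Poisson intervals of the fragment number. Grey shows the median (3.93) and interquartile range (3.14 to 5.39) of all 13808 peaks. The strongest peaks of TRIM16L, SQSTM1 and TXNRD1 stand at 22.5, 10.4 and 10.1, and most other peaks lie in or near the grey band.

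Ordered by their strongest peak, the genes were TRIM16L (22.5), SQSTM1 (10.4), TXNRD1 (10.1), NQO1 (7.18), HMOX1 (6.42), NFE2L2 (5.94), SRXN1 (5.93), SLC7A11 (4.29) and GCLM (3.68). The interval of the TRIM16L peak lay wholly above that of the SQSTM1 peak. Every other pair of neighbours in this order had overlapping intervals, so their order is not resolved. The intervals cover counting error of the fragments and take the local background as known. The strongest peaks of TRIM16L, SQSTM1 and TXNRD1 were 3 of the 30 among the 1380 of all 13808 peaks with the highest fold enrichment. This is about the share that the 1380 make of the whole list. Of the 30, 13 lay above the median of all peaks.

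Local background was under 2 times the genome-wide level at 22 of the 30 peaks, with a median of 1.31 times, beside 1.16 over all peaks. The third quartile was 1.96 times, beside 1.83 over all peaks, so a background under 2 times was common in the whole list too. Raised values were found at TXNRD1, at the inner peak of NQO1 and at the neighbouring peak of TRIM16L, where the background was 2.18 times the genome-wide level.

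**Figure D3:**
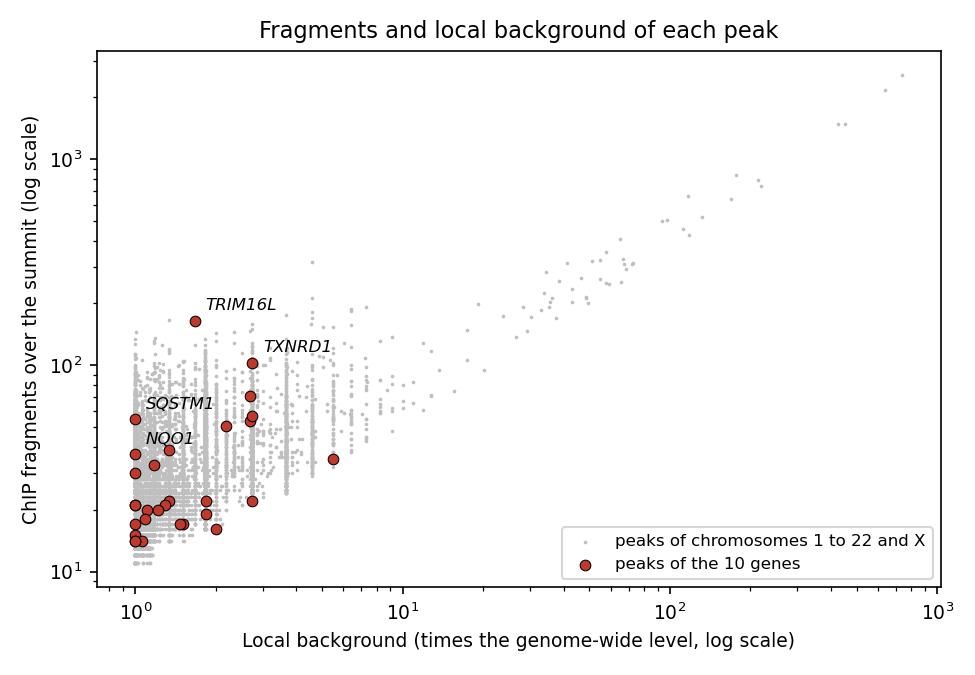
ChIP fragments over the summit against local background in multiples of the genome-wide level (both log scales) for the peaks of chromosomes 1 to 22 and X (grey) and the 30 peaks of the 10 genes (red). The strongest peaks of TRIM16L (165 fragments) and TXNRD1 (103) lie above the other red points, and the red point farthest right is the TXNRD1 peak with a background of 5.48 times the genome-wide level.

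The limit of 50 kb is arbitrary. The member farthest from its gene was the peak of TRIM16L with a fold enrichment of 3.58, 46.0 kb beyond the interval. Just outside the limit lay a peak 52.5 kb from HMOX1, on chromosome 22 from position 35842148 to 35842747, with a fold enrichment of 9.92 and a q-value of 2.21e-14, beside 6.42 for the strongest peak assigned to that gene.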

How the data were processed

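KMT2D ChIP-seq of KMT2D-WT SCC23 cells was analysed as 1 deposited peak list. Bowtie2 was used by the authors for mapping to hg19 and MACS2 for peaks, from reads with a unique position and with a limit on the p-value. The control is not named. The deposited fold enrichment is a ratio, the significance columns hold −log10 of the p-value and of the q-value, and the deposited score is the whole part of 10 times the −log10 p. The highest deposited p-value was 0.00984.

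Genes were placed by their hg19 intervals and oriented by GENCODE 44 (GRCh38), since no hg19 annotation was used here. Gene lengths in RefSeq (GRCh38) differed from the intervals by 2.23 kb for GCLM and by at most 0.840 kb for the others. Neighbours and promoters come from RefSeq on GRCh38.p14, and no coordinate was converted. Coordinates are counted from 1.

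Fragment numbers at the summits were recovered as whole numbers, with ChIP scaled by 0.381 and 2.88 fragments as the genome-wide level, and all 30 peaks of the genes gave the deposited −log10 p to within 0.02. Tested on simulated data (3 lists, the smallest of 12564 peaks), this gave the exact number for at least 99.38% of peaks. The simulated lists were made with the same formulas that the recovery inverts and with the background level given. They therefore do not test whether those formulas hold for the deposited list. Poisson and Wilson intervals (95%) cover counting error only, and those for numbers or shares of peaks take the peaks as independent.

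Genes, lists and thresholds were chosen with earlier results of these data known. All 10 genes were named, each with its strongest peak and the peak nearest its 5′ end. Each of the 14 samples was grouped by antibody and genotype. Python 3.11.15, numpy 2.4.6, pandas 2.3.3, scipy 1.17.1 and matplotlib 3.10.9 were used.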

Additional observations from a re-analysis of the deposited data

How the results depend on the processing

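Among 50 values under alternatives, 9 moved beyond 1.5 times the reported count or beyond the 95% interval of the reported value. The other 41 did not. These counts, medians, densities and shares have no sign, so a change of direction was not possible. Keeping only peaks with a q-value of at most 0.05 left 14 peaks, a median fold enrichment of 5.98 and 9.82 peaks per Mb of the windows, and a q-value of at most 0.01 left 11, 6.42 and 7.71, by construction. Windows reaching 10 kb from the genes gave 38.3 peaks per Mb, against 21.0. With them the median fold enrichment was 4.29, above the 3.93 of all peaks, while the 3.76 of the 50 kb windows lay below it. The number of member promoters with a match of letters was 6 with TGANNNNGC and 0 with TGACTCAGC, against 3 with TGACNNNGC. Within 5 kb of the 5′ end 7 genes had a peak, and 6 within 1 kb, as within 2 kb. GCLC gained a peak when the windows reached 100 kb, and GCLM lost its own at 10 and 25 kb. The alternatives for the share of peaks with a q-value of at most 0.05 were chosen after seeing the data. The share lay between 45.5 and 58.3% under them. Its highest value, with windows of 10 kb, was near the 58.5% of all peaks. No paired analysis was possible because the file of only 1 sample was used here. Members whose q exceeded 0.05 had 17.5 fragments in the median, and with no replicate the recurrence of a peak was not assessed.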
